A study of Drosophila melanogaster with 12 samples.

Results

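The sequences described here are small RNAs of piRNA size that carry both U at position 1 (1U) and A at position 10 (10A), counted from the 5′ end. They were taken from the sequence lists of 12 Drosophila melanogaster small RNA libraries as every distinct sequence of 23 to 29 nt with T, as the lists write U, at position 1 and A at position 10. Any sequence sharing 15 nt with 2S rRNA, a short ribosomal RNA read from the lists as the most abundant 30 nt sequence of the Aub library of krimp heterozygous ovaries, was left out. This gave 17190 distinct sequences, called members below, of 95922 listed in all and of 84000 that met the length and 2S rRNA conditions, called eligible below. Of the other eligible sequences, 39866 had 1U without 10A, 11258 had 10A without 1U, and 15686 had neither.

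piRNAs bind proteins of the Piwi family, in flies Piwi, Aub and AGO3, and guide them to transposon transcripts in the animal gonad. In the fly ovary Piwi acts in the nucleus of germline and somatic cells, while Aub and AGO3 act in the germline cytoplasm, where each can cut a transcript opposite position 10 of its guide. The cut sets the 5′ end of a new piRNA, so guide and product overlap by 10 nt at their 5′ ends, and a guide that begins with U tends to give a product with A at position 10. This loop is called ping-pong. Piwi and Aub piRNAs mostly start with U, and AGO3 piRNAs mostly have A at position 10, so a sequence with both letters carries the signature of both sides. The reverse complement of a 10 nt start with 1U and 10A again has 1U and 10A, so every 10 nt partner of a member is itself a member. Krimper (Krimp) is a Tudor domain protein of the germline perinuclear nuage that binds AGO3.

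Total small RNA of 18 to 29 nt, and RNA bound to Piwi or Aub, came from ovaries of krimp heterozygous females, used by the study as control, and of krimp mutant females. RNA bound to AGO3 came from krimp heterozygous, Oregon R (a wild-type strain, used as control) and aub mutant ovaries. The 3 remaining libraries came from OSC, a cell line of somatic origin from the fly ovary, all with krimp knocked down, in which myc-tagged Piwi, Aub or AGO3 was expressed ectopically. Per the labels the myc-Piwi complex was recovered with a myc antibody and the others with Aub and AGO3 antibodies. OSC derive from the somatic follicle lineage, which normally has Piwi and neither Aub nor AGO3, and no OSC library without the knockdown was analysed here. The krimp mutant Aub library has a source label that also contains the word control. By title and genotype the library is a mutant one, and it is treated so throughout.

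Each group had 1 library, so the differences below could not be checked against replicates, and p-values are left out. The lists hold raw read counts of sequences with at least 100 reads, 116014 to 24979879 reads per library, so a sequence that is not listed may still have had up to 99 reads. 2S rRNA took 1.08% to 93.7% of listed reads, and its share was highest in the AGO3 libraries of aub mutant (93.7%) and Oregon R (83.0%) ovaries and in the heterozygous Aub library (66.3%). Shares below are of eligible reads or sequences unless stated. Intervals are exact (Clopper-Pearson) 95% intervals and cover counting error only. They are too narrow, because PCR reads without molecular identifiers and length variants of a single 5′ end are not independent. Fragments of RNAs other than 2S rRNA, and microRNAs, were not removed from the eligible sequences. The 1U and 10A shares of the immunoprecipitates were first set against their labels. In krimp heterozygous ovaries 79.3% of eligible Piwi sequences, 72.8% of Aub and 39.2% of AGO3 sequences began with U, and 27.4%, 41.3% and 71.4% had A at position 10.

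Among the immunoprecipitates of krimp ovaries, Aub held the highest share of members. In krimp heterozygous ovaries, members were 26.9% of eligible Aub sequences (95% interval 25.4 to 28.5; 851 sequences), 23.1% of AGO3 (22.3 to 23.9; 2550), 21.6% of Piwi (21.3 to 22.0; 10407) and 21.3% of total small RNA (20.8 to 21.8; 5330). By reads Aub again stood first and total small RNA last, with 35.0% for Aub, 22.6% for Piwi, 22.2% for AGO3 and 17.7% for total small RNA. In krimp mutant ovaries, members were 43.9% of Aub sequences (42.1 to 45.6; 1370), 21.1% of Piwi sequences (20.7 to 21.6; 6269) and 10.3% of total small RNA sequences (9.71 to 11; 885). By reads the mutant shares were 38%, 22.8% and 4.04%. The Aub share was thus higher and the total share lower in the mutant, while the Piwi share differed by -0.486 percentage points of sequences and 0.186 of reads. Members were 16.4% of Oregon R AGO3 sequences (12.9 to 20.4; 65) and 19.0% of aub mutant AGO3 sequences (16.1 to 22.0; 135). In OSC they were 23% for myc-Piwi (20.2 to 26; 192), 15.4% for myc-Aub (12.5 to 18.6; 86) and 8.61% for myc-AGO3 (6.44 to 11.2; 49).

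**Figure D1:**
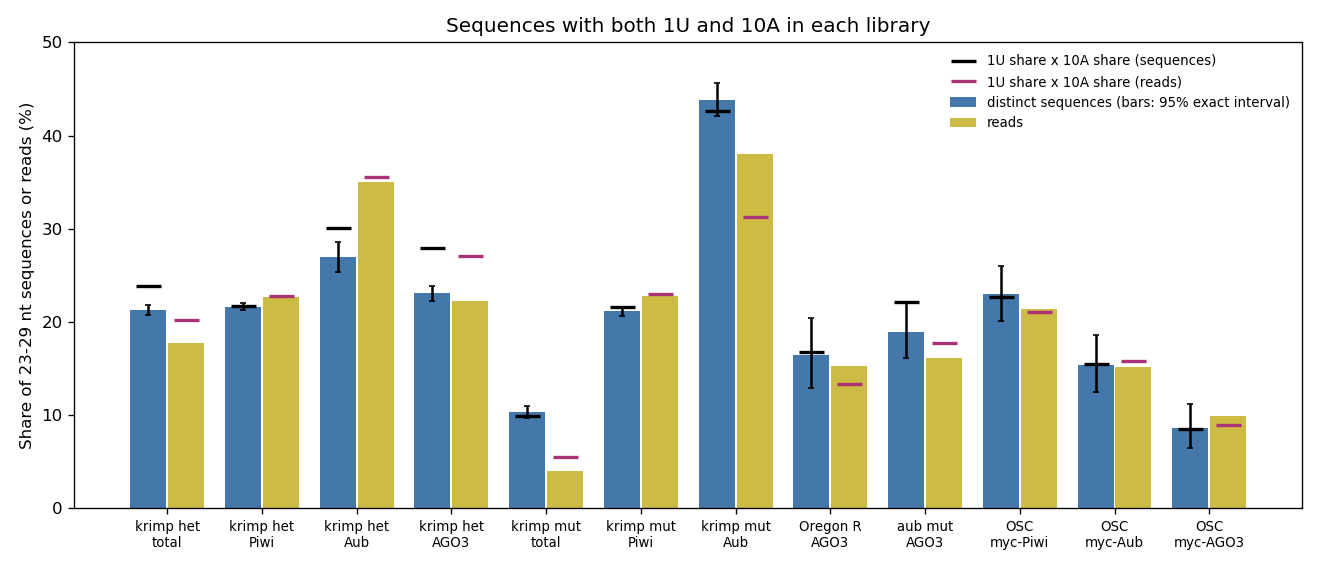
Share (%) of 23 to 29 nt sequences (blue, with exact 95% intervals for counting error) and reads (yellow) that had both 1U and 10A in each of the 12 libraries, with horizontal marks for the product of the 1U and 10A shares. krimp mutant Aub stood highest at 43.9% of sequences, and OSC myc-AGO3 lowest at 8.61%.

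The share of members was set against the single shares of the 2 letters. If U at position 1 and A at position 10 were spread without regard to each other, the share of members would be the product of the 2 single shares. The observed share of sequences was 0.994 of that product in heterozygous Piwi and 0.977 in mutant Piwi. It was 0.825 of the product in heterozygous AGO3, 0.897 in heterozygous Aub and 0.894 in heterozygous total small RNA, so in these lists the letters occurred together less often than their single shares would give. In heterozygous AGO3, 58.9% of sequences with 1U had 10A, against 79.5% of those without 1U. In heterozygous Aub the shares were 37.0% and 52.6%. In mutant Aub the ratio was 1.03, and 68.8% of its 1U sequences had 10A against 63.5% of the others. By reads the mutant Aub ratio was 1.22, with 10A on 73.5% of 1U reads and 46.6% of the others, where heterozygous Aub had 46.0% and 49.0%. By reads mutant total small RNA had the lowest ratio, 0.733, although its ratio by sequences was 1.05. In OSC the ratio by sequences lay between 0.995 and 1.01.

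A few 5′ ends carried much of the member reads in Aub and were less dominant in Piwi. Taking the leading 20 nt as a 5′ end, the 851 heterozygous Aub members had 481 ends, of which the most abundant held 25.0% of member reads. Mutant Aub had 681 ends, and the most abundant held 10.1%. In heterozygous AGO3 the leading end of 1459 held 4.29%, and in heterozygous Piwi the leading end of 7326 held 1.78%. The smallest set of ends that reached 50% of member reads had 12 ends in heterozygous Aub, 22 in mutant Aub, 31 in mutant total, 72 in heterozygous AGO3, 206 in heterozygous total, 384 in mutant Piwi and 710 in heterozygous Piwi. The number of length variants per end was 1.77 in heterozygous Aub, 2.01 in mutant Aub, 1.75 in heterozygous AGO3 and 1.42 in heterozygous Piwi.

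The leading Aub end shows how such a 5′ end was distributed. It had 18 variants of 23 to 29 nt, with 115020 reads in heterozygous Aub, 40069 in heterozygous AGO3, 7980 in heterozygous Piwi and 53575 in heterozygous total small RNA. In krimp mutant ovaries it had 91709 reads in Aub, 4520 in Piwi and 3032 in total small RNA. Its share of eligible reads was 8.76% in heterozygous Aub and 3.82% in mutant Aub, against 0.599% in heterozygous AGO3 and 0.0474% in heterozygous Piwi. Among the libraries of each genotype its share was thus highest in Aub, and krimp mutant ovaries had no AGO3 library to compare. A 26 nt variant of it was the most abundant single member of heterozygous Aub, with 40261 reads, and had 29801 in mutant Aub. A 28 nt variant, with 35305 and 27086 reads, was the member listed in most libraries, 9 of 12. Leaving this end out of member and eligible reads alike gave a member share of 28.7% in heterozygous Aub and 35.5% in mutant Aub, so the difference by reads was 6.80 percentage points in place of 3.02.

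Piwi members were the longest and AGO3 members the shortest in krimp heterozygous ovaries. The mean length of member reads in heterozygous ovaries was 26.33 nt in Piwi, 25.88 nt in Aub and 24.83 nt in AGO3, against 26.23, 25.42 and 24.75 nt for the other eligible reads. In mutant ovaries it was 26.44 nt in Piwi and 25.60 nt in Aub, against 26.30 and 25.34 nt. The most common member length was 26 nt in both Piwi libraries, 25 nt in both Aub libraries and 24 nt in heterozygous AGO3. Aub members had more long reads than the other Aub sequences, as 12.6% of heterozygous member reads were 28 nt long against 5.07% of the others, and 10.4% against 3.91% in the mutant. The 28 nt variant of the leading end alone had 35305 of the 459264 heterozygous member reads. In both total libraries the member reads were most often 25 nt long and the other reads most often 23 nt. The mean lengths were 25.07 and 24.55 nt in the heterozygote and 24.65 and 24.40 nt in the mutant. Each sequence counted once, the heterozygous total difference was 0.0836 nt, so the difference by reads was carried by abundant sequences. Members of Oregon R AGO3 were longer than those of heterozygous AGO3, with a mean of 27.47 nt and a mode of 29 nt, and aub mutant AGO3 members had a mean of 26.76 nt. In OSC the means were 26.54 nt for myc-Piwi, 25.79 nt for myc-Aub and 25.38 nt for myc-AGO3.

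**Figure D2:**
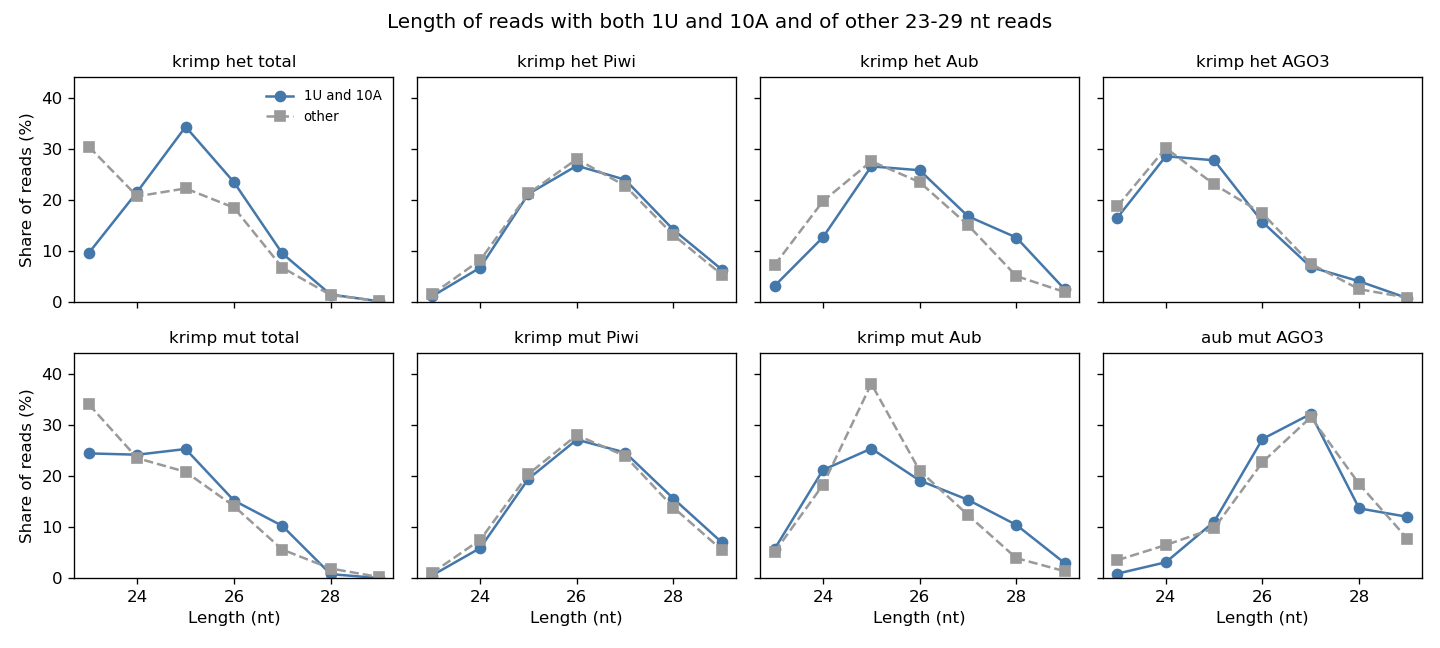
Share (%) of member reads (blue circles) and of other eligible reads (grey squares) at each length from 23 to 29 nt, for the 7 krimp ovary libraries and aub mutant AGO3. Member reads peaked at 26 nt in Piwi, 25 nt in Aub and 24 nt in heterozygous AGO3. At 23 nt lay 9.62% of member reads against 30.4% of other reads in heterozygous total small RNA, and 24.4% against 34.0% in mutant total.

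Outside the letters fixed by the rule, members shared features of base composition with other 10A sequences. Each 5′ end was counted once. At position 9, next to the fixed A, members had fewer U and more G than sequences with 1U and no 10A in all 7 krimp ovary libraries. In heterozygous Piwi, U was at 20.1% of member ends against 30.9% of 1U ends without 10A, and G at 30.1% against 20.8%. In mutant Aub, U was at 18.8% against 39.0%, and G at 30.5% against 19.8%. Ends with 10A and no 1U had values near those of members, with U at 18.2% in heterozygous Piwi and 18.8% in mutant Aub. The G and U values thus went with the A at position 10 and were similar in the Piwi and Aub libraries. A was frequent at positions 5 to 7 of heterozygous AGO3 members, at 39.9%, 37.6% and 40.3% of ends, and lay at 25.3%, 27% and 28.3% in heterozygous Piwi members. Mutant Aub members, at 38.2%, 33.8% and 38.6%, lay nearer to AGO3 members at positions 5 and 7 than heterozygous Aub members did, at 31.4%, 34.3% and 31.4%. The G and C content of member ends was 42.7% in heterozygous AGO3, 44.3% in Aub and 47.1% in Piwi.

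Most members were listed in a single library. Of the 17190 members, 10306 (60.0%) were in 1 library, 4227 in 2, 1722 in 3 and 614 in 4, and none was in more than 9. Of the other eligible sequences 62.3% were in 1 library. The read minimum lowers all such sharing. Among the 12691 members listed in a heterozygous immunoprecipitate, 9865 (77.7%) were in Piwi alone, 1771 in AGO3 alone and 206 in Aub alone. Another 307 were in Aub and AGO3, 204 in Piwi and AGO3, 70 in Piwi and Aub, and 268 in all 3. Aub members were thus mostly shared, while Piwi members mostly were not. List length bears on this, with 10407 members in Piwi, 2550 in AGO3 and 851 in Aub. Most of the Piwi list could therefore not be shared whatever the sequences.

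The overlap of Aub with AGO3 was larger for members than for the rest. Of the 851 heterozygous Aub members, 575 (67.6%; 64.3 to 70.7) were listed in AGO3, and they held 87.9% of Aub member reads. Among the other Aub sequences 57.4% (55.3 to 59.4) were listed in AGO3. These others were not split by class. Of heterozygous total sequences with 10A and no 1U, 276 were listed in Aub and AGO3 and not Piwi, and 28 in Aub alone. For members these counts were 281 and 147, and for 1U without 10A 335 and 331. A large overlap with AGO3 was thus not particular to members. The same 575 were 22.5% of AGO3 members, against 15.6% of the other AGO3 sequences that Aub listed. The AGO3 list was the longer, which favours the first direction. With Piwi, 338 members were shared, 39.7% of Aub members and 3.25% of Piwi members, against 37.8% and 2.31% of the others.

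Shared members were present at unequal levels in the 2 proteins. Of the 575 listed in both, 367 (63.8%) had a share of eligible reads more than 2-fold lower in AGO3 than in Aub, and 53 (9.22%) more than 2-fold higher. Of all 1899 eligible sequences listed in both, 64.3% were lower and 10.9% higher, so members did not stand apart. This split moved with the scaling: by shares of all listed reads 193 were lower and 142 higher, and by shares of member reads 295 and 86. The member highest in AGO3 relative to Aub, 24 nt long, had 19144 AGO3 reads and 173 Aub reads, a 21.7-fold higher share. A 27 nt member with 113 AGO3 and 2512 Aub reads had an AGO3 share of 0.00883 times the Aub share. The most abundant AGO3 members were both 25 nt long, with 35830 and 34510 AGO3 reads and 1305 and 467 Aub reads. Between Piwi and Aub, 303 of 338 shared members (89.6%) had a share more than 2-fold lower in Piwi and 14 (4.14%) more than 2-fold higher. The values for all eligible sequences were 83.9% and 4.71%. The leading Piwi member, 25 nt long, had 67325 reads in heterozygous Piwi and 209 in Aub, a 25.1-fold higher share, and was not listed in AGO3.

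Members paired at 10 nt within and across Aub and AGO3, and hardly at all among the most abundant Piwi members. Such pairing was not particular to members, as the values by class further below show. A partner was counted when the leading 10 nt of another listed member were the reverse complement and its leading 20 nt differed. Because more sequences give more partners, the 851 most abundant members of each krimp ovary library were compared. As a background, positions 2 to 9 of each start were complemented without being reversed, which keeps 1U and 10A. In heterozygous ovaries 25.7% of Aub members had a partner in AGO3 (95% interval 22.8 to 28.8; background 0.353%), and 22.9% of AGO3 members had a partner in Aub (20.1 to 25.9). Within Aub the share was 20.6% (17.9 to 23.4; background 0), within AGO3 17.6% (15.1 to 20.4) and within total small RNA 12% (9.88 to 14.4). Within Piwi it was 0.353% (0.0728 to 1.03), equal to its background. Piwi members had a partner in Aub in 2.23% (1.35 to 3.46) and in AGO3 in 1.65% (0.902 to 2.74) of cases. The share of Aub members with a partner among the 3124 most abundant eligible AGO3 sequences was 24.1% at 10 nt. It was 3.64% at 8 nt, 1.18% at 9 nt and 0.118% at 11 nt. Only at 10 nt must a partner have 1U and 10A, so the other lengths are not a like background.

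Partners among Piwi members appeared when the whole list was searched. Of all 10407 heterozygous Piwi members, 17.4% (16.6 to 18.1) had a partner in the Piwi list, against 9.25% for the background. The Piwi list is long, with 6316 distinct starts of the 65536 possible with 1U and 10A, so many background matches arise. Of the 542 Piwi members also listed in Aub or AGO3, 22.5% (19.1 to 26.3; background 8.49%) had a partner, and of the 9865 not listed there 17.1% (16.4 to 17.8; background 9.30%). Searching these 9865 against each other gave 16.4% (15.7 to 17.2), with a background of 8.92%. The excess over background was therefore present in members that Aub and AGO3 did not list, although these may have had up to 99 reads there. In mutant Piwi the whole-list share was 11.4% (10.6 to 12.2) with a background of 6.52%, and for members not listed in mutant Aub, searched against each other, 10.2% (9.40 to 11) with 6.50%.

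In heterozygous ovaries 129 distinct pairs of starts, each start being the leading 10 nt, paired across Aub and AGO3. The abundant pairs were repeatedly the same 5′ ends. Of the 5 pairs with the largest smaller read count, 4 joined a single Aub end with a single AGO3 end in different lengths. The Aub side of these pairs had 9 variants, with 4879 reads in heterozygous Aub, 4907 in AGO3 and 6263 in mutant Aub. The AGO3 side had 6 variants, with 14845 reads in heterozygous AGO3, 905 in mutant Aub and none listed in heterozygous Aub. Both sides were thus listed in Aub once krimp was mutant, where the AGO3 side had been below the read minimum before. The other pair joined a 25 nt member, with 1765 Aub and 670 AGO3 reads, with a 26 nt member that had 466 Aub and 2015 AGO3 reads. Of the 24 pairs with both starts listed in both proteins, 11 had a start with the higher share in Aub and its partner with the higher share in AGO3, 13 had both higher in Aub, and none had both higher in AGO3. Over all 344 starts listed in both proteins 75% were higher in Aub, which bears on this count.

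**Figure D3:**
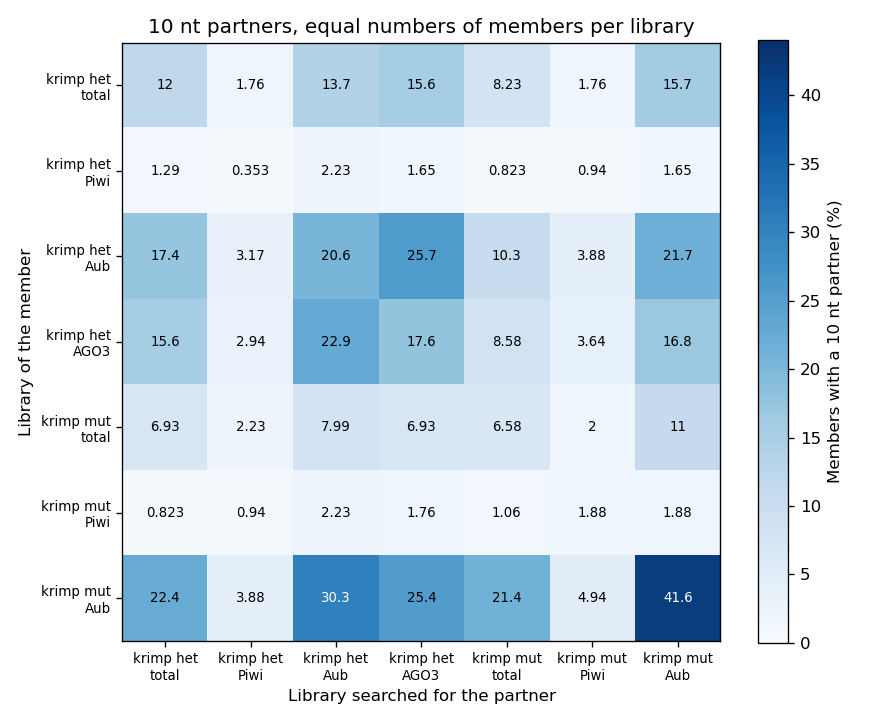
Share (%) of the 851 most abundant members of each krimp ovary library (rows) with a 10 nt partner among the 851 most abundant members of the same or another library (columns). The highest value, 41.6%, lies within krimp mutant Aub, and the Piwi rows and columns hold values of at most 4.94%.

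In krimp mutant ovaries the members of Aub paired among themselves more often than in heterozygous ovaries. Within mutant Aub 41.6% of the 851 most abundant members had a partner (38.3 to 45; background 1.18%), against 20.6% within heterozygous Aub. With 1 library per genotype this difference was not tested. Mutant Aub members found a partner in heterozygous Aub in 30.3% (27.2 to 33.5) and in heterozygous AGO3 in 25.4% (22.5 to 28.4) of cases. In mutant total small RNA they did so in 21.4% (18.7 to 24.3). Within mutant total small RNA the share was 6.58% (5.01 to 8.46), against 12% in the heterozygote, so total small RNA went the other way from Aub. Within mutant Piwi the share was 1.88% (1.08 to 3.04; background 1.29%). With the partner searched among the 3124 most abundant eligible sequences, the mutant Aub share was 50.6% at 10 nt, 2.59% at 9 nt and 1.76% at 11 nt.

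**Figure D4:**
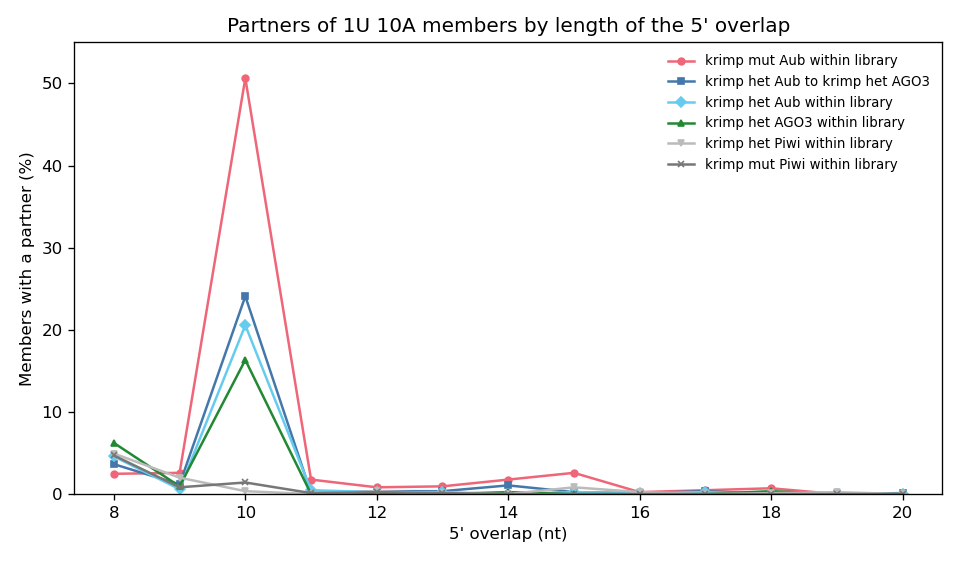
Share (%) of the 851 most abundant members of a library with a partner among the 3124 most abundant eligible sequences of the named library, for 5′ overlaps of 8 to 20 nt. Aub and AGO3 curves peak at 10 nt, highest within krimp mutant Aub at 50.6%, and the Piwi curves lie at most at 1.41% there.

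Members of mutant Aub had the highest partner share of the 4 classes of that library by sequences, but not by reads. With the 407 most abundant sequences of each class, 40.5% of members (35.7 to 45.5) had a partner in mutant Aub. The share was 32.7% (28.1 to 37.5) for 10A without 1U, 20.4% (16.6 to 24.6) for 1U without 10A, and 4.91% (3.03 to 7.49) for neither. The intervals of members and of 10A without 1U overlapped. By reads, 10A without 1U stood first with 47.6%, against 44.2% for members. Sequences with 1U alone can pair only with those that have 10A alone. In heterozygous Aub the same shares were 12.3% for members (9.26 to 15.9), 16.7% for 10A without 1U, 17.0% for 1U without 10A and 7.37% for neither, so members did not lead there, and the first 3 intervals overlapped.

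Mutant Aub members were grouped by whether heterozygous Aub and AGO3 listed them. Of the 1370, 315 (23%) had been listed in heterozygous Aub as well as AGO3 and held 58.6% of the reads. Another 306 (22.3%) were in AGO3 and not Aub, with 17.2% of reads, and 62 (4.53%) were in Aub and not AGO3, with 2.25%. The remaining 687 (50.1%) were in neither, with 22.0% of reads. The heterozygous AGO3 list holds 2550 members and the Aub list 851, which favours matches to AGO3. Among the 1U sequences without 10A, 10.3% were in AGO3 and not Aub and 8.70% in Aub and not AGO3. Among the 10A sequences without 1U the values were 37.9% and 1.25%. Members thus lay between both. Partners within mutant Aub were found in all 4 groups, for 52.1% (46.4 to 57.7) of members listed in both, 45.1% (39.4 to 50.9) of those in AGO3 and not Aub, 51.6% (38.6 to 64.5) of those in Aub and not AGO3, and 41.3% (37.6 to 45.1) of those in neither.

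**Figure D5:**
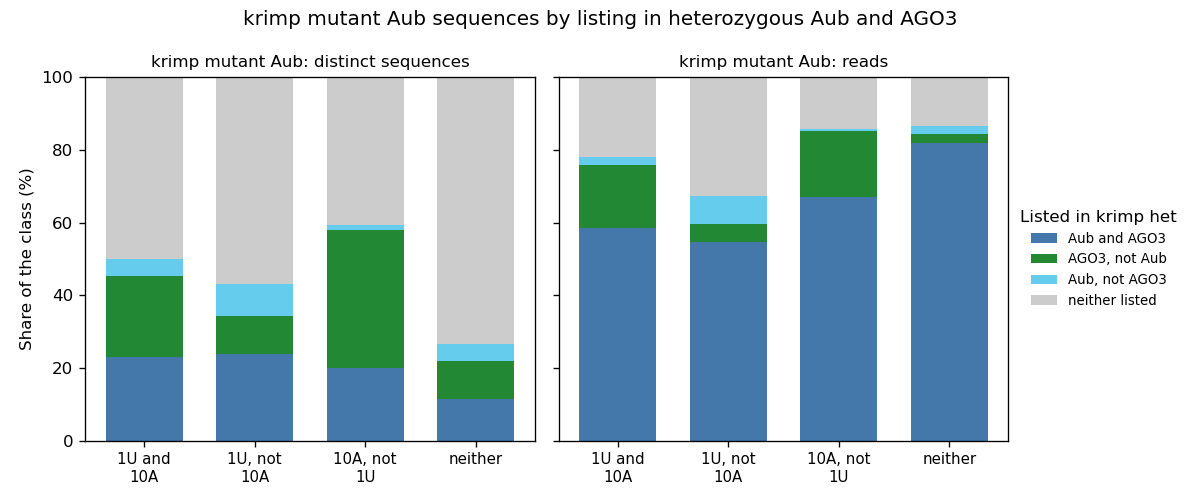
krimp mutant Aub sequences of each class, as share (%) of distinct sequences (left) and of reads (right), by whether krimp heterozygous Aub and AGO3 listed the same sequence. Members listed in both proteins were 23% of sequences and 58.6% of reads.

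Seen from the heterozygote, Aub members were retained in mutant Aub more often than other Aub sequences. Of 851, 377 (44.3%; 40.9 to 47.7) were listed in mutant Aub, with 72.7% of the reads, against 18.3% (16.8 to 19.98) of the other sequences. The mutant list favours members in this direction, with 1370 members among 3124 eligible sequences, against 851 among 3158 in the heterozygote. From the mutant side, 27.5% of members and 24.1% of the other sequences were listed in heterozygous Aub, and the intervals overlapped. The other sequences were not split by 10A in this comparison. The retained members had paired more in the heterozygote. Of them 34.0% (29.2 to 39.0) had a partner within heterozygous Aub and 59.7% (54.5 to 64.7) in heterozygous AGO3, against 9.92% (7.38 to 13) and 35.9% (31.5 to 40.4) of the 474 not listed in the mutant. Retained members are the more abundant ones, and abundance was not held equal in this comparison. Mutant Aub had 83 distinct pairs of starts. Of these, 41 also paired across heterozygous Aub and AGO3, and 20 also paired within heterozygous Aub. In 19 neither start was listed in either heterozygous protein.

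Levels of the 377 shared Aub members moved in both directions. In the mutant 84 (22.3%) had a share more than 2-fold higher and 122 (32.4%) more than 2-fold lower, where all 800 eligible sequences listed in both Aub libraries gave 24.9% and 33.6%. By shares of all listed reads the counts were 122 higher and 79 lower, so the balance turned with the scaling. The largest rise was the leading member of mutant Aub, 25 nt long, with 187 reads in heterozygous Aub and 38758 in mutant Aub, a 113-fold higher share. It had 578 reads in heterozygous AGO3, 469 in heterozygous total and 3356 in mutant total small RNA. Its 5′ end, which had 15 variants over all libraries, had 382 reads in heterozygous and 75943 in mutant Aub, and 874 and 5797 in the total libraries. Starts that pair with this end had 1487 reads in mutant Aub and were listed in no other library. A 28 nt member of another end rose 35.6-fold, from 116 to 7559 reads, and had 802 reads in heterozygous AGO3.

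Other Aub members were lower in the mutant. A 25 nt member with 8450 reads in heterozygous Aub and 15125 in AGO3 had 591 in mutant Aub, or 0.0383 times the share. It also went from 18717 to 157 reads in total small RNA, or 0.0114 times the share, the lowest ratio there among members with at least 1000 reads in either library. Its partner starts had 4685 reads in heterozygous AGO3, 1956 in heterozygous total small RNA and 100 in mutant Aub, and were listed in no other library. A 26 nt member of Aub that AGO3 did not list went from 1912 to 103 reads, or 0.0295 times the share. The leading member of heterozygous total small RNA, 25 nt long, went from 34020 to 10728 reads in Aub, or 0.173 times the share, and its partner starts were listed at 160 reads in heterozygous AGO3 and 108 in Oregon R AGO3, and in no other library. Of the 474 members listed in heterozygous Aub alone of the Aub pair, 414 were more than 2-fold lower in the mutant even if given 99 reads there. Of the 993 listed in mutant Aub alone, 221 were more than 2-fold higher with 99 reads in the heterozygote. Both counts were made for members only, so they do not set members apart from other sequences. They also depend on depth, as heterozygous Aub had 1312990 eligible reads and mutant Aub 2400019. The same 99 reads are a larger share in the heterozygote.

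In total small RNA members were fewer in the krimp mutant, and those listed in both genotypes were lower relative to all shared eligible sequences. The list fell from 5330 to 885 members, and member reads from 2379602 to 400462. All eligible sequences fell from 25028 to 8553. Those with 1U and no 10A fell from 12030 to 2208, with 10A and no 1U from 3266 to 1448, and with neither from 4402 to 4012. The loss in number was thus not particular to members. Among the 666 members listed in both, 240 (36.0%) had a share more than 2-fold lower and 113 (17.0%) more than 2-fold higher in the mutant. All 4691 eligible sequences listed in both went mostly the other way, with 16.4% lower and 43.0% higher. The median log2 ratio was -0.50 for members and 0.62 for all eligible sequences. As shares of member reads the counts turned to 59 lower and 449 higher, so the direction holds relative to other eligible RNA and not within the members. Of the 4664 members listed in the heterozygote alone, 1417 were more than 2-fold lower even at 99 mutant reads. That count was not made for the other eligible sequences. Fewer germ cells or less of these RNAs per cell cannot be told apart in bulk ovaries.

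The 3 members that led mutant total small RNA were not among the 3 leading members of any immunoprecipitate, although 2 of them were listed in some. The first, 25 nt long, had 18690 reads against 2366 in the heterozygote, a 10.7-fold higher share. It had 202 and 255 reads in heterozygous and mutant Piwi, and Aub and AGO3 did not list it. The second, 27 nt long, had 15170 against 3352 reads, a 6.13-fold higher share. It had 515 and 858 reads in heterozygous and mutant Piwi, 142 in mutant Aub and 145 in aub mutant AGO3. The third, 23 nt long, had 11813 against 17252 reads, or 0.927 times the share, and was listed in no immunoprecipitate. Of the 885 mutant members 383 (43.3%) were listed in neither mutant Piwi nor mutant Aub, and they held 51.8% of the reads. Of the 5330 heterozygous members 1109 (20.8%), with 12.4% of the reads, were listed in none of the 3 heterozygous immunoprecipitates. How many of these are fragments of other RNAs was not tested, and the mutant value lacks an AGO3 library. By sequences, mutant members were more often listed in an immunoprecipitate than those with 10A alone (89.0% in neither) or 1U alone (54.6% in neither). By reads, 76.1% for 10A alone and 40.1% for 1U alone were in neither, so the order against 1U alone turned.

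Piwi members differed between the genotypes about as often as the rest of Piwi-bound RNA. Of 6269 mutant members, 3705 (59.1%; 57.9 to 60.3) were listed in heterozygous Piwi, which is 35.6% of the heterozygous members, against 56.4% and 35.0% of the others. Of the shared ones 1722 (46.5%) had a share more than 2-fold higher and 520 (14.0%) more than 2-fold lower in the mutant, and all 16896 shared eligible sequences gave 47.8% and 14.0%. The read minimum and the shorter mutant list favour higher shares in both. The leading heterozygous member went from 67325 to 3914 reads, or 0.0854 times the share. In total small RNA it went from 15231 to 412 reads. The leading mutant member, 27 nt long, rose from 8690 to 21413 reads, a 3.62-fold higher share. The largest rise was 15.1-fold, for a 25 nt member with 109 and 1119 reads. A 29 nt member with 4708 and 127 reads fell furthest, to 0.0396 times the share.

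The AGO3 libraries address what AGO3 carries without Aub. They listed few members beside 2S rRNA, 14694 reads in Oregon R and 34526 in aub mutant ovaries, against 1484521 in krimp heterozygous AGO3. Members were 15.3% of eligible reads in Oregon R and 16.2% in aub mutant AGO3, and the intervals of their shares of sequences overlapped. Both lay below the 22.2% of krimp heterozygous AGO3. Of the 65 Oregon R members 27 (41.5%; 29.4 to 54.4) were listed in krimp heterozygous AGO3 and 17 (26.2%) in aub mutant AGO3, close to the 34.1% and 25.98% of the other Oregon R sequences. Of the 135 aub mutant members 52 (38.5%; 30.3 to 47.3) were listed in krimp heterozygous AGO3 and 37 (27.4%) in krimp heterozygous Aub. Among the other aub mutant sequences those shares were 22.9% and 14.6%. The remaining 74 members (54.8%), with 53.3% of the reads, were in none of the krimp heterozygous immunoprecipitates. For the other aub mutant sequences this share was 65.7% (1U without 10A), 63.8% (10A without 1U) and 79.7% (neither). By reads it was 60.9%, 53.5% and 82.9%, so being unlisted was no particular trait of members.

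Aub mutant AGO3 members paired with each other. With the 65 most abundant members of each AGO3 library, 18 (27.7%; 17.3 to 40.2) had a partner within aub mutant AGO3, 3 (4.62%; 0.962 to 12.9) within Oregon R AGO3 and 0 within krimp heterozygous AGO3. A count of 0 of 65 allows a share of up to 4.62%. The background was 0 in these 3 searches. With all 135 aub mutant members the share was 43.0% (34.5 to 51.8). Across libraries 12 of the 65 Oregon R members (18.5%; 9.92 to 30.03) had a partner in aub mutant AGO3. Longer lists of krimp heterozygous AGO3 did hold pairs, as 33.5% of all its 2550 members had one, so the number of members searched moves these values.

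Of the 17 members listed in aub mutant and Oregon R AGO3, 8 (47.1%) had a share more than 2-fold lower and 2 (11.8%) more than 2-fold higher in the mutant, where all 103 eligible sequences gave 45.6% and 13.6%. By shares of all listed reads 15 were lower and none higher. The leading aub mutant member, 29 nt long, had 3138 reads against 524 in Oregon R, a 2.69-fold higher share, and was listed in no other library. A 26 nt member that led the lowered ones had 218 against 1100 reads, or 0.0891 times the share. Against krimp heterozygous AGO3, 44 of 52 shared members (84.6%) were more than 2-fold higher and 2 (3.85%) lower, and all 184 shared sequences gave 89.1% and 2.72%. By shares of all listed reads the direction turned, with 12 members higher and 21 lower. Eligible reads were few in the aub mutant library, so a listed sequence there has a high share from the outset. The largest ratio of shares of eligible reads, 314-fold, belonged to a 27 nt member with 1352 aub mutant and 135 krimp heterozygous AGO3 reads. A 25 nt variant of the same end had 825 and 1326 reads, so the lengths of this end differed between the libraries.

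In OSC a larger share of myc-Piwi than of myc-AGO3 sequences were members, and few members had partners. The myc-Piwi members overlapped those of ovarian Piwi, with 70 of 192 (36.5%; 29.6 to 43.7) listed in heterozygous and 83 (43.2%; 36.1 to 50.6) in mutant Piwi. The other myc-Piwi sequences gave 32.9% and 41.5%, so members lay close to the rest. None of the 192 was listed in an ovarian Aub or AGO3 library, which allows a share of up to 1.56%, and 0.776% of the other sequences were in heterozygous Aub. Of the 86 myc-Aub members 51 (59.3%; 48.2 to 69.8) were also in myc-Piwi, 1 in heterozygous Aub and 2 in mutant Aub. Of the 49 myc-AGO3 members 7 (14.3%; 5.94 to 27.2) were in myc-Piwi and none in an ovarian AGO3 library, which allows a share of up to 6.12%. Of the other myc-Aub and myc-AGO3 sequences 45.2% and 8.08% were in myc-Piwi, and both intervals overlapped those of the members. Within myc-Piwi and within myc-AGO3 no member had a 10 nt partner, and within myc-Aub 2 of 86 did (2.33%; 0.283 to 8.15). The counts of 0 allow shares of up to 1.56% within myc-Piwi and 6.12% within myc-AGO3. The lists searched were short, and in heterozygous Aub 300 members in place of 851 also lowered the share above background, from 20.6 to 8.33 percentage points.

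Single OSC members varied between the proteins. The leading myc-Piwi member, 29 nt long, had 1172 reads in myc-Piwi and 183 in myc-Aub, or 0.223 times the share. It was also in ovarian Piwi, with 1666 heterozygous and 4990 mutant reads. The leading myc-Aub member, 24 nt long, had 1025 reads there and 325 in myc-Piwi, a 4.50-fold higher share, and no ovary library listed it. The leading myc-AGO3 member, 25 nt long, had 2139 reads and was listed nowhere else, and its 5′ end held 27.1% of myc-AGO3 member reads. Of the 51 members shared by myc-Aub and myc-Piwi, 12 (23.5%) were more than 2-fold higher and 3 (5.88%) more than 2-fold lower in myc-Aub, and all 265 shared sequences gave 19.6% and 5.66%. Of the 7 shared by myc-AGO3 and myc-Piwi none was higher and 2 (28.6%) were lower in myc-AGO3, where all 49 shared sequences gave 6.12% and 20.4%. This balance turned with the scaling, with none higher and 6 lower by shares of all listed reads, and 4 higher and 1 lower by shares of member reads.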

How the data were processed

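The files hold, for each of 12 libraries, distinct sequences of 20 to 30 nt and their read counts, deposited by the authors as raw whole numbers with a minimum of 100. Per the labels' protocols, RNAs were size-selected on gels, proteins were recovered with antibodies, and a TruSeq Small RNA kit gave the libraries. The build was dm 3, per the submitters' processing notes. The trimmer and the aligner were not given in the sources used here. Genome positions were not analysed here, so no sequence is printed, and members are named by library, rank and length. Genotype and knockdown follow the labels and were not checked.

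Members, lists and tests were chosen with earlier results of these data known. Named members are the 3 with most reads in each library, the 3 with the largest ratio of shares in each direction among those listed in both libraries with at least 1000 reads in either, and the 5 heterozygous Aub and AGO3 partner pairs with the largest smaller read count. Reads of their 5′ ends (leading 20 nt) and partner starts are also given. A fold rule of 2 was used. Partner searches compared equal numbers of the most abundant members, 851 for krimp ovary, 65 for AGO3 and 49 for OSC libraries. Limits at a count of 0 use 3 counts. The partner search was tested on simulated data. Alternatives covered lengths, read minimum, weighting, 2S rRNA matching, numbers, background, scaling and control. Python 3.11.15, numpy 2.4.6 and scipy 1.17.1 were used.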

Additional observations from a re-analysis of the deposited data

Results flagged for a closer look

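Aub and total small RNA went opposite ways between krimp mutant and heterozygous ovaries in 2 measures. The share of members among eligible sequences was 16.9 percentage points higher in mutant than in heterozygous Aub and differed by -10.9 points in total small RNA. The share of the 851 most abundant members with a 10 nt partner in their own library, above background, was 19.9 points higher in mutant Aub and differed by -5.99 points in total small RNA. With 1 library per group the difference between Aub and total small RNA was not tested. Members listed in no immunoprecipitate of the same genotype held 51.8% of member reads in mutant and 12.4% in heterozygous total small RNA, and their part in the result was not tested.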

How the results depend on the processing

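Of 100 recomputed values of 27 results, 66 stayed within the counting interval of the first value (counts within 1.5 times) and 34 moved further, 2 of them with a change of sign. By reads in place of sequences, the member share differed by 3.02 points (mutant against heterozygous Aub; 6.80 without each library's leading 5′ end, an alternative added after the data were seen), -13.7 (total), 0.186 (Piwi) and -12.8 (heterozygous AGO3 against Aub). The Piwi difference of sequences was -0.486 points, so its sign turned. At a read minimum of 200 the total difference was -13.1. With krimp heterozygous AGO3 as control in place of Oregon R, the aub mutant AGO3 difference was -4.13 in place of 2.55 points, so its sign turned too. Partner shares above background fell with shorter lists: within mutant Aub 33.7 points with 300 members and 34.7 with 1 member per 5′ end. Within heterozygous Aub they were 13 with 500, 8.33 with 300, 15.8 with 1 member per end and 12.98 at a read minimum of 200. For heterozygous Aub in AGO3 they were 45.2 with all members, 20 with 500, 12.7 with 300, 20.6 with 1 member per end and 15.9 at 200 reads. With all members they were 8.12 within heterozygous Piwi and 43.0 within aub mutant AGO3. The length difference in heterozygous total was 0.0836 nt by sequences. By leading 20 nt, sharing was 79.2% (heterozygous Aub in AGO3), 31.6% (mutant Aub in heterozygous Aub), 54.5% (mutant Aub in AGO3) and 61.8% (mutant Piwi in heterozygous Piwi); at 200 reads it was 62.7%, 24.7% and 56.9% for the first, second and last. By listed reads 142 members were higher and 193 lower in AGO3 than in Aub, and 79 lower in mutant Aub; by member reads 86 were higher in AGO3, and 449 higher and 59 lower in mutant total. Beyond list length, causes were not tested. The alternative leaving out microRNAs was not run, because no microRNA table was used here. No paired analysis was possible because each group had 1 library. The read minimum and the 2S rRNA share limit depth, most of all in Oregon R, aub mutant and OSC libraries.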

Other observations

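The 5′ end of the leading aub mutant AGO3 member had 3385 reads in aub mutant AGO3, 524 in Oregon R AGO3, 1022 in mutant Aub, 143 in heterozygous Aub, 426 and 677 in heterozygous and mutant Piwi, and 770 and 1219 in heterozygous and mutant total small RNA. It was also listed in OSC myc-Aub, with 413 reads, and in neither krimp heterozygous AGO3 nor the other OSC libraries. The second aub mutant AGO3 end had 3432 reads there, 2025 in krimp heterozygous AGO3 and 1830 in heterozygous Aub, against 266 in mutant Aub, and was not listed in mutant Piwi or mutant total small RNA. Of the 83 pairs of starts within mutant Aub, 27 had reads within 2-fold of each other, and the median ratio of the larger to the smaller was 3.40. Within heterozygous Aub 14 of 32 pairs were within 2-fold, with a median ratio of 2.31.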
